A study of Arabidopsis thaliana with 6 samples.

Results

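The RNA of seedlings labelled as epl1a/b(-/-), mutant in EPL1A and EPL1B, was compared with that of wild-type Col-0 seedlings in 4 of the 6 libraries of the study. EPL1A and EPL1B are the Arabidopsis counterparts of Enhancer of Polycomb, a subunit of NuA4, the complex that acetylates the tails of histones H4 and H2A. The tested genotype, epl1a/b(-/-), had 2 libraries, and its reference, Col-0, had 2. Whole seedlings of both genotypes were taken at 2 weeks, from plates of Murashige and Skoog medium at 23 °C under 16 h of light and 8 h of dark, and total RNA was sequenced. The other 2 libraries of the study held Col-0 seedlings, 1 in the light and 1 wrapped in foil. They are read here only as counts beside the genes found on or off and a few others that fell. The table listed 32548 genes, and the 23658 with a normalised count of at least 1 in at least 2 of the 4 libraries were tested. The account covers pathways and gene families beyond photosynthesis, the genes switched on or off, and the size of the changes by expression level.

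In yeast and animals, Enhancer of Polycomb joins the catalytic subunit of NuA4 to the rest of the complex, and the acetyl groups that NuA4 places are found at the starts of active genes. The pathways below are ordered from metal and nutrient supply to stress, metabolism, hormones, timing, immunity and chromatin.

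The labels of the mutant libraries were checked first. EPL1A (AT1G16690) had 93.8 and 79.2 normalised counts in the libraries labelled epl1a/b, against 282 and 225 in Col-0. Its log2 change, given with its SE as all below, was -1.54 ± 0.16 (adjusted p = 0.000233, limma). EPL1B (AT1G79020) had 4656 and 4399, against 335 and 351 in Col-0, a log2 change of 3.72 ± 0.07 (adjusted p = 7.41e-07). One targeted gene was thus lower and the other higher, and where in each gene the reads lie was not analysed here. The libraries are therefore called the libraries labelled epl1a/b, or epl1a/b-labelled, throughout, and every direction below rests on that label. The titles of these 2 libraries also begin with the name of a histone mark, H4K5Ac, while their other labels give total RNA. AT1G78995, a gene for an uncharacterised protein 3 genes from EPL1B, had 15.9 and 11.2 normalised counts in the epl1a/b-labelled libraries, against 205 and 217 in Col-0 (log2 change -3.88 ± 0.24, adjusted p = 1.32e-05). The other 11 neighbours of the 2 targeted genes lay between -0.87 and 0.05 on the same scale.

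The deposited normalised counts corresponded to 19088784 and 19067459 whole reads in the epl1a/b-labelled libraries, and to 18796289 and 18821439 in Col-0. The labels do not say that libraries of one genotype came from separate cultures, so the p-values here describe the spread among these libraries, which may be technical. In RNA of whole seedlings, fewer cells of a type and less RNA per cell cannot be told apart. Over all genes tested, 5333 (22.5%) were higher in the epl1a/b-labelled libraries and 5707 (24.1%) were lower at an adjusted p under 0.05, and 1947 (8.23%) and 1890 (7.99%) also differed at least 2-fold. The median log2 change was 0.02. When the libraries were scaled to equal totals instead, the median became 0.25 and 70.5% of the calls were higher, against 48.3% as deposited, so small changes are read relative to that shift. Of the 218 named genes that were called, 109 lost the call when genes with low values were not filtered out first, and this is not repeated gene by gene.

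Marker genes fixed for other cell types and stages moved as well. The 4 leaf markers summed to 304119 and 314001 normalised counts in the epl1a/b-labelled libraries, against 660220 and 604870 in Col-0, and all 4 fell. The 12 root markers summed to 4207 and 5536 in the epl1a/b-labelled libraries, against 7397 and 6695 in Col-0, and 6 fell and 1 rose. The 4 markers of dividing cells summed to 1263 and 1351, against 1268 and 1353 in Col-0, so the genotypes overlapped. The 7 floral markers summed to 208 and 161, against 76.2 and 266 in Col-0, and they overlapped too. The 14 seed markers summed to 182 and 159, against 49.8 and 62.2 in Col-0, and 5 of them, among them the storage protein genes CRU3 and SESA2, were listed at 0 in all 4 libraries.

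Weakly and strongly expressed genes did not change alike. Among the 3261 genes with a mean normalised count under 10, 12.5% were higher and 3.56% lower, and the median log2 change was 0.36. The 4900 genes from 10 to under 100 had 24.9% higher and 13.4% lower, with a median of 0.22. These weaker genes thus leaned towards higher values in the epl1a/b-labelled libraries. Among the 11535 genes from 100 to under 1000, 24.5% were higher and 29.8% lower, and among the 3786 genes from 1000 to under 10000, 22.2% were higher and 37.2% lower. Of the 176 genes at 10000 or more, 21.6% were higher and 54.0% lower, with a median log2 change of -0.44. Many of these are photosynthesis genes, which encode some of the most abundant messages of a green seedling. Without the photosynthesis and chlorophyll genes, 129 remained in the top bin, 29.5% of them higher and 37.2% lower, with a median of -0.02. The genes left out were matched by words, which missed at least NdhO, a subunit gene of a chloroplast dehydrogenase complex. Scaling to equal totals turned the medians of the bins from 100 to under 1000 and from 1000 to under 10000 positive, to 0.21 and 0.16, and left that of the top bin at -0.20.

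The size of the changes, without regard to sign, can be set beside the spread between replicates. The median size of the log2 change was 0.85 under 10 normalised counts, where replicates of one genotype differed by a median of 0.60. It was 0.36 from 100 to under 1000 and 0.31 from 1000 to under 10000, where replicates differed by 0.11 and 0.08. It was 0.73 at 10000 and more, where replicates differed by 0.09. Called genes under 10 normalised counts had a median size of 2.24, since smaller changes did not pass the test there, and those from 1000 to under 10000 had 0.54. Genes at least 2-fold higher made up 12.5% of those under 10, 4.66% of those from 100 to under 1000 and 2.64% of those from 1000 to under 10000, and genes at least 2-fold lower 3.56%, 7.35% and 11.2% of the same bins. These bins are of read support and not of transcript level per length.

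**Figure D1:**
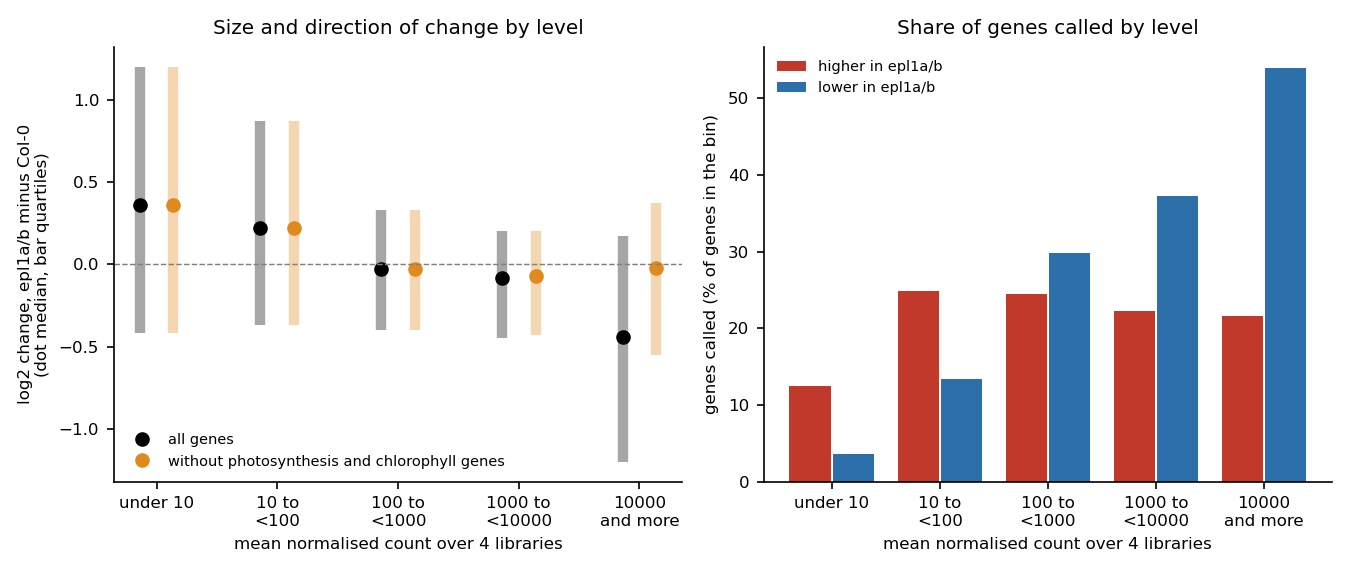
Left, log2 change (epl1a/b minus Col-0) by mean normalised count over the 4 libraries, with the median as a dot and the quartiles as a bar, for all genes tested and without photosynthesis and chlorophyll genes. Right, the share of genes called higher (left bar of each pair) and lower (right bar) in the epl1a/b-labelled libraries. The median falls with level, from 0.36 under 10 to -0.44 at 10000 and more, where it is -0.02 without photosynthesis genes.

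Small nucleolar and long non-coding RNA genes leaned the same way as other weakly counted genes. Of the 147 small nucleolar RNA genes tested, which guide chemical modification of ribosomal RNA, 31 were higher and 1 lower, with a median log2 change of 0.62. Of the 782 long non-coding RNA genes, 97 were higher and 36 lower, with a median of 0.24. The 78 microRNA precursor genes had 7 higher and 8 lower. The median mean level was 4.41 normalised counts for small nucleolar RNA genes and 3.36 for long non-coding RNA genes, against 269 for protein-coding genes, so the medians of both groups lie under 10.

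Among the 40 gene lists, the members called in one direction ranged from none to all. The lists with at least 50.0% of their tested members higher were small heat shock proteins, larger chaperones, iron storage, mitochondrial stress (only 3 tested), seed maturation, and the synthesis of glucosinolates and phenylpropanoids. At 50.0% itself stood the gibberellin list (7 of 14) and the senescence and dark-induced list (3 of 6). The lists with at least 50.0% of them lower were the iron deficiency regulators, iron uptake, auxin, starch, root hairs and the leaf markers. Most of the 40 lists are described below, against 22.5% higher and 24.1% lower over all genes, and the plot of shares gives the others.

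**Figure D2:**
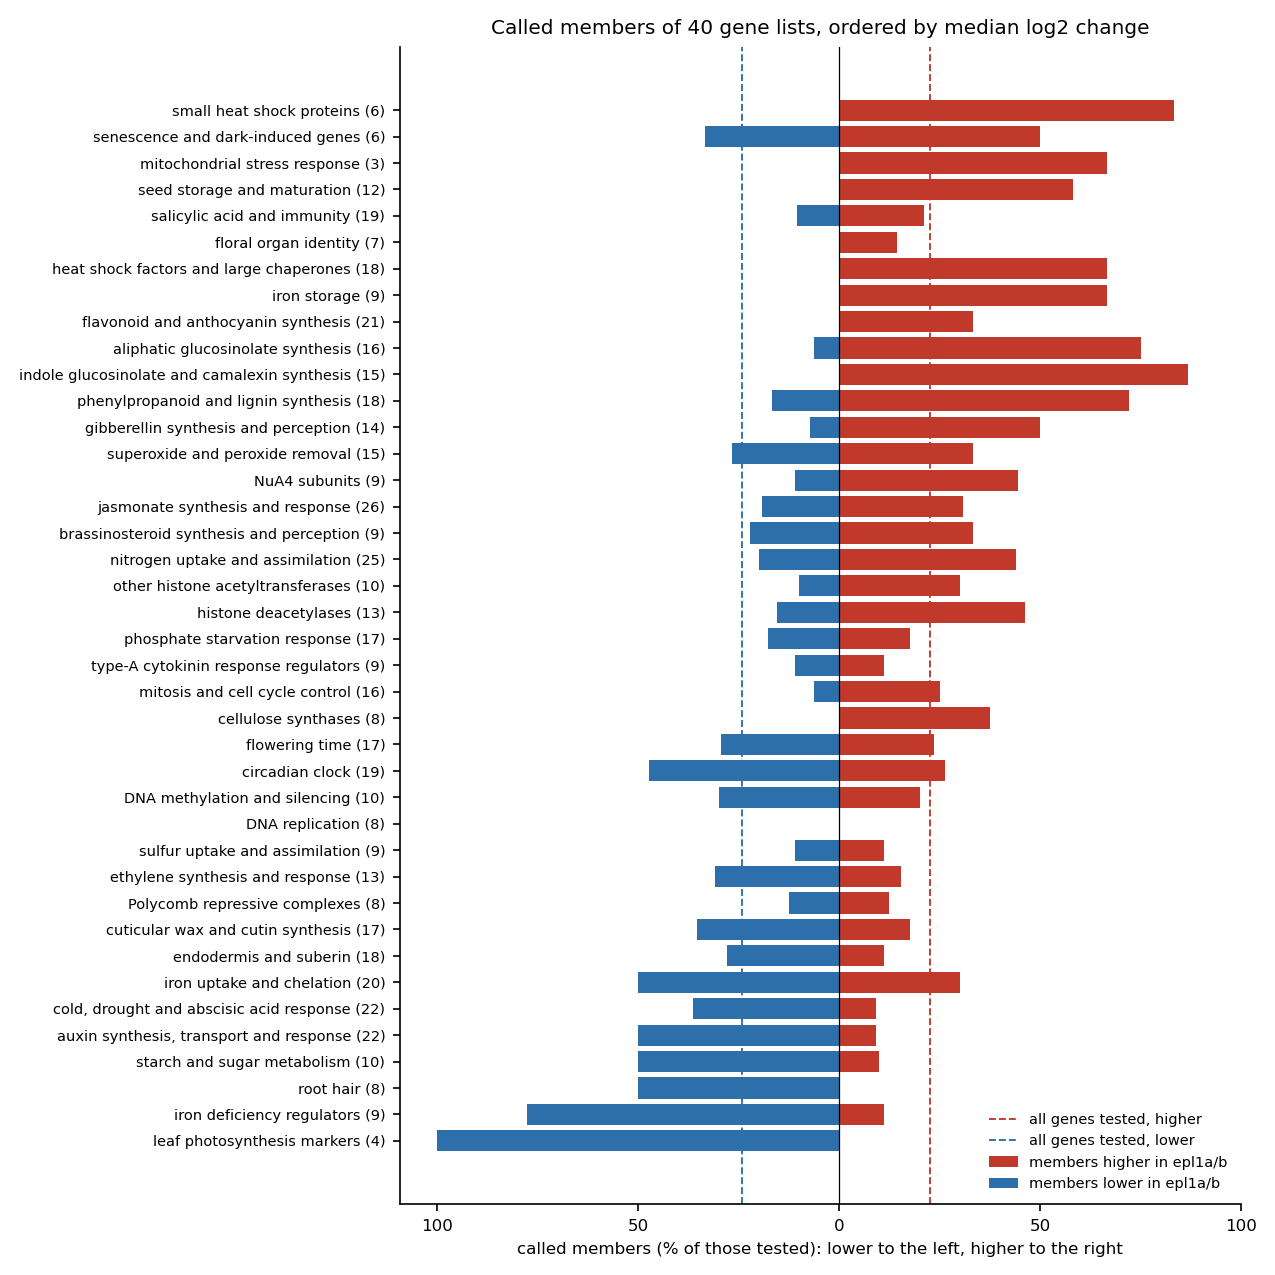
Share of the tested members of 40 gene lists called higher (red, right of 0) and lower (blue, left of 0) in the epl1a/b-labelled libraries, in % of the members tested, with the number tested in parentheses and the lists ordered by median log2 change. The dashed lines stand at the shares over all genes tested, 22.5% higher and 24.1% lower. Small heat shock proteins stand at the top and leaf photosynthesis markers at the bottom.

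Many genes that take up iron, and most regulators that turn them on in iron shortage, were lower in the epl1a/b-labelled libraries, several of them at or near 0, while genes of iron storage were higher. In iron-starved roots, the factor FIT acts with partners of the bHLH Ib group to switch on the reductase FRO2 and the transporter IRT1, and the ubiquitin ligase BTS holds the response back. Of 9 regulators tested, 1 rose and 7 fell, with a median log2 change of -1.41. The list had 15 entries, and 5 that could not be paired with a name in the annotation were left out of these counts. They are IMA1, IMA2, IMA3, BTSL1 and BTSL2. All 4 bHLH Ib genes fell. bHLH39 (AT3G56980) had 3.58 and 0.792 normalised counts in the epl1a/b-labelled libraries, against 154 and 202 in Col-0 (log2 change -5.95 ± 0.47, adjusted p = 4.78e-05). With replicate 1 or replicate 2 of epl1a/b left out, its change was -6.63 or -5.28. BHLH100 (AT2G41240) had 0.892 and 0, against 175 and 213 in Col-0, that is 1 read against 371, a ratio of 0.0023 with a 95% counting interval of 5.68e-05 to 0.0126. bHLH38 (AT3G56970) was listed at 0 in both epl1a/b-labelled libraries, against 85.0 and 165 in Col-0, at least 47.6-fold lower against a floor of 3 reads per library, and 35.7% of its length is overlapped by another gene. BHLH101 (AT5G04150) had 2.61 in both epl1a/b-labelled libraries, against 65.4 and 64.3 in Col-0.

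The other paired regulators moved less. BTS (AT3G18290) had 1116 and 1182 normalised counts in the epl1a/b-labelled libraries, against 3224 and 2876 in Col-0 (log2 change -1.41 ± 0.08, adjusted p = 1.08e-05). PYE, a repressor within the response, fell by 1.00 ± 0.13 on the log2 scale, and ILR3, a partner of PYE, fell by 0.59 ± 0.07. FIT itself, named FRU in the annotation (AT2G28160), went the other way from its partners, with 193 and 307 in the epl1a/b-labelled libraries, against 131 and 124 in Col-0 (log2 change 0.93 ± 0.21, adjusted p = 0.0109). Its call was lost without either Col-0 library (adjusted p = 0.095 and 0.109). AT2G30766, the unpaired list entry IMA3, is annotated only as an uncharacterised protein and stood among the 8 largest falls. It had 5.05 and 11.6, against 1239 and 1027 in Col-0 (log2 change -7.02 ± 0.35, adjusted p = 3.87e-05), and 20.5% of its length is overlapped by another gene.

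Of 20 genes of iron uptake and chelation, 6 rose and 10 fell, with a median of -0.15, which was 0.09 with 9 and 9 at equal totals. IRT1 (AT4G19690), the main iron transporter of the root surface, was listed at 0 in both epl1a/b-labelled libraries, against 268 and 432 in Col-0, at least 133-fold lower. IRT2 had 8.67 and 10.5, against 67.8 and 96.3 in Col-0 (log2 change -2.95 ± 0.30, adjusted p = 0.000186). FRO2, the reductase at the root surface, had 28.4 and 12.7, against 94.6 and 188 in Col-0 (log2 change -2.74 ± 0.48, adjusted p = 0.00564), and its adjusted p was 0.0511 without Col-0 replicate 2. CYP82C4, which makes an iron-binding coumarin, was listed at 0, against 39.5 and 93.0 in Col-0, at least 25.3-fold lower. The members that fell were not only root genes of uptake. The chloroplast reductase FRO7 fell by 1.44 ± 0.13, with 24.5% of its sequence words found elsewhere in the genome. The phloem transporter OPT3 fell by 1.14 ± 0.07. NAS2, a synthase of the metal chelator nicotianamine, rose, with 168 and 155, against 46.4 and 45.7 in Col-0 (log2 change 1.79 ± 0.17, adjusted p = 0.000119).

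Of 9 iron storage genes, 6 rose and none fell, with a median of 0.82. Ferritins hold iron in plastids in a form that does no harm. FER1 (AT5G01600) had 8261 and 9984 normalised counts in the epl1a/b-labelled libraries, against 3235 and 2562 in Col-0 (log2 change 1.66 ± 0.14, adjusted p = 0.0002). FER3 had 1321 and 1343, against 689 and 690 in Col-0, and FER4 had 885 and 843, against 446 and 538 in Col-0. FER2, the ferritin of seeds, had 101 and 96.1, against 44.1 and 24.0 in Col-0 (adjusted p = 0.00382), and this call was lost without either epl1a/b library (adjusted p = 0.0666 and 0.0644). YSL1, which moves iron chelates to leaves and seeds, rose by 1.24 ± 0.17. The root markers, given above, were lower in the same libraries, and the leaf markers were lower as well. Their part in these changes was not tested.

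Root hair genes, of the cells that take up iron and other ions, had 4 of 8 members lower, but these calls were not stable. At equal totals 1 was lower, with a replicate block 2, and with 1 library left out 0 to 6. PRP3, a wall protein of root hairs, had 1052 and 1574 normalised counts in the epl1a/b-labelled libraries, against 3054 and 2752 in Col-0 (log2 change -1.17 ± 0.21, adjusted p = 0.0114), and its adjusted p was 0.0507 without Col-0 replicate 1. RSL4, a factor that drives hair growth, had 21.5 and 32.6, against 69.4 and 45.8 in Col-0 (adjusted p = 0.0266), and it lost the call whichever library was left out (adjusted p = 0.0587 to 0.205).

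**Figure D3:**
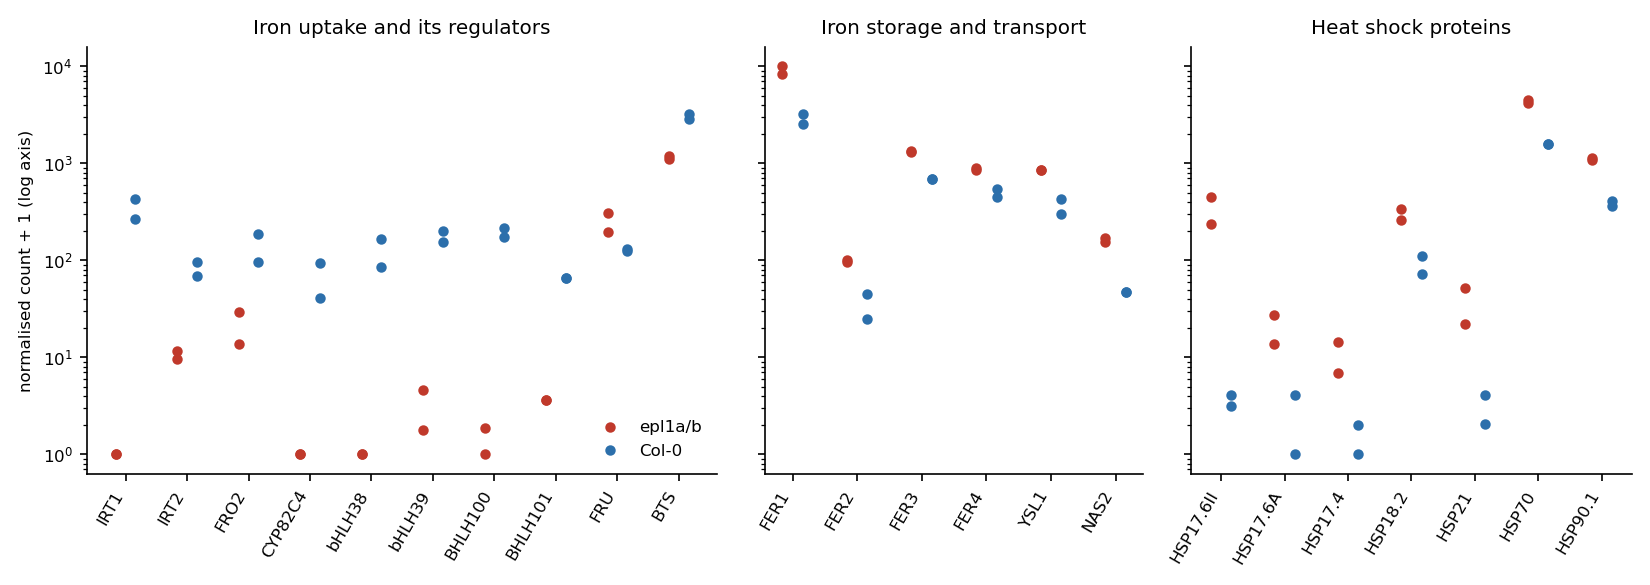
Normalised count + 1 (log axis) of each library for 10 genes of iron uptake and its regulation, 6 of iron storage and transport and 7 heat shock protein genes, with the epl1a/b-labelled libraries in red on the left of each pair and Col-0 in blue on the right. IRT1, CYP82C4 and bHLH38 stand at 0 counts in both epl1a/b-labelled libraries, while FER1 and HSP17.6II stand above Col-0.

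The 250 bases upstream of the starts of the iron genes were searched for the G-box, CACGTG, the core bound by many bHLH and bZIP factors, which reads the same on both strands. It occurred in the windows of 6 of the 17 iron genes that fell, 2 of the 13 that rose and 0 of the 8 not called. Over all 22447 protein-coding genes tested, 7.19% had one, against 9.50% of the 1843 genes at least 2-fold lower and 5.94% of the 1801 genes at least 2-fold higher. The windows of 2 genes that fell are shown, the one with the most matches and that of a regulator switched off. They come from RefSeq (TAIR10.1), run 5′ to 3′ on the gene's strand up to the base before its start, and have the G-box in capitals. BTS, at chr3:6273716-6273965 on the plus strand, held 3 matches, the most of any iron gene. BHLH100, at chr2:17199455-17199704 on the minus strand, held 1.
BTS: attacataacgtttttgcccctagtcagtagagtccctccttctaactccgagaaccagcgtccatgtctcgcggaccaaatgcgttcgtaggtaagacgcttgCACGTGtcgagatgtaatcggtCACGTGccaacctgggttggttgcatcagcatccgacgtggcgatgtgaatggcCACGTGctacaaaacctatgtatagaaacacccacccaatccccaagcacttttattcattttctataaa
BHLH100: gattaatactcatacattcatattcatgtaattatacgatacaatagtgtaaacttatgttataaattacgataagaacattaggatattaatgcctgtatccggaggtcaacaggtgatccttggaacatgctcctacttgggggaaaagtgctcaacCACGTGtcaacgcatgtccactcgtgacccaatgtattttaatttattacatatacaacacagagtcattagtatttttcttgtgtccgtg
A match describes the letters in these windows and is not a site.

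Many heat shock protein genes were higher in the epl1a/b-labelled libraries. The labels give 23 °C for all plates, and the part of temperature or handling was not tested. Small heat shock proteins hold unfolding proteins in solution and are nearly silent in unstressed plants. Of 6 tested, 5 rose and none fell, with a median log2 change of 3.03. These 6 are the entries of a list of 14 that could be paired with a name in the annotation, and the other 8 are given by locus below. HSP17.6II (AT5G12020) had 444 and 238 normalised counts in the epl1a/b-labelled libraries, against 2.13 and 3.11 in Col-0 (log2 change 6.51 ± 0.35, adjusted p = 7.84e-06). HSP21, the small heat shock protein of the chloroplast, had 51.5 and 21.1, against 3.14 and 1.06 in Col-0 (log2 change 3.55 ± 0.57, adjusted p = 0.00177). Its change was 2.92 with epl1a/b replicate 1 left out, where its adjusted p was 0.0537, and 4.17 with replicate 2 left out. HSP18.2 had 338 and 257, against 72.1 and 110 in Col-0 (log2 change 1.72 ± 0.23, adjusted p = 0.00109). The genotypes did not overlap for any of the 5, and epl1a/b replicate 1 was the higher of its pair in each. Between 2 and 5 of them were called when 1 library was left out.

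In the HSP20 family as its descriptions name it, 12 of 30 genes rose and 2 fell. AT1G53540 had 166 and 63.8 in the epl1a/b-labelled libraries, against 4.21 and 3.12 in Col-0 (log2 change 4.49 ± 0.47, adjusted p = 0.00021), with 3.81 and 5.17 without epl1a/b replicate 1 and replicate 2. AT2G29500 had 680 and 469, against 62.6 and 102 in Col-0 (log2 change 2.80 ± 0.30, adjusted p = 0.00151). Both are among the 8 entries that could not be paired, as are HSP23.6-MITO (AT4G25200), AT5G51440 and AT4G21870, which rose by 4.46 ± 0.66, 2.15 ± 0.26 and 0.69 ± 0.12. AT1G07400 (0.66 ± 0.34), AT1G52560 (-0.21 ± 0.32) and AT5G37670 (-1.05 ± 0.39) make up the rest and were not called, so 5 of the 8 rose. Of a list of 18 heat shock factors and larger chaperones, 12 rose and none fell, with a median of 0.83. Families found by their descriptions moved less. Of 20 heat shock factors, 5 rose and 1 fell, with a median of 0.22. Of 96 DnaJ chaperones, 22 rose and 26 fell, with a median of 0.01, so the rise of the list was not shared by that family. HSP90.1, the inducible cytosolic HSP90, had 1144 and 1093, against 359 and 413 in Col-0 (log2 change 1.54 ± 0.09, adjusted p = 1.28e-05). HSP70 (AT3G12580) had 4444 and 4150, against 1587 and 1571 in Col-0 (log2 change 1.44 ± 0.07, adjusted p = 5.35e-06), and GolS1, which makes the protective sugar galactinol, rose by the same 1.44 ± 0.14. HSP101, the disaggregase needed for acquired heat tolerance, was not called, with 340 and 278, against 300 and 302 in Col-0. The factor HSFA2 had 62.2 and 55.8, against 27.3 and 17.7 in Col-0 (adjusted p = 0.00592), and its call was lost without either epl1a/b library (adjusted p = 0.0698 and 0.0573).

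Heat shock factors bind repeats of GAA and its reverse complement TTC. The upstream windows of that family and of the small heat shock protein list were searched for GAANNTTC and TTCNNGAA, each of which is its own reverse complement and which can overlap each other. Either occurred in 6 of the 17 genes that rose, 0 of the 2 that fell and 4 of the 16 not called, and in 15.9% of all protein-coding genes tested. Of genes at least 2-fold higher 16.6% had one, and of genes at least 2-fold lower 15.2%. The window of HSP17.4 (AT3G46230), at chr3:16984868-16985117 on the minus strand, held 4 matches, the most among them. HSP17.4 had 13.3 and 5.90 normalised counts, against 0.00696 and 1.03 in Col-0, with 70.9% of its length overlapped by another gene, so its call (adjusted p = 0.00993) is uncertain, and it was lost without either epl1a/b library (adjusted p = 0.166 and 0.0668) or without Col-0 replicate 1 (0.0941). The window of HSP21, at chr4:13819972-13820221 on the minus strand, held 1. The matches are in capitals.
HSP17.4: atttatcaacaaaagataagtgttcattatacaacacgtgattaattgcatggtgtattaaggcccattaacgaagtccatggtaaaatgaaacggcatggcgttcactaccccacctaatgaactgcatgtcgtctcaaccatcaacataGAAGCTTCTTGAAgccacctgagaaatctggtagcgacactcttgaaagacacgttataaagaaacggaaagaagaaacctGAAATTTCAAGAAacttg
HSP21: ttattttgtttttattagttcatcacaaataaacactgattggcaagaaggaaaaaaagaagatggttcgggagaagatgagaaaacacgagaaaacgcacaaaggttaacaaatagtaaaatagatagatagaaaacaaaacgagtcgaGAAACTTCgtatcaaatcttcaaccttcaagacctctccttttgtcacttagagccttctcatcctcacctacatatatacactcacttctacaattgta
That of HSP17.6II, the gene with the largest rise among them, held none, which says only that these letters are not in this window.

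Genes of nitrate uptake and reduction were split. Of 25 nitrogen genes, 11 rose and 5 fell, with a median log2 change of 0.17. NRT2.1 (AT1G08090, written NRT2:1 in the annotation), the main high-affinity nitrate transporter, had 170 and 199 normalised counts in the epl1a/b-labelled libraries, against 24.3 and 24.9 in Col-0 (log2 change 2.85 ± 0.19, adjusted p = 2.26e-05). Its partner NRT3.1 (WR3) had 590 and 773, against 206 and 224 in Col-0 (log2 change 1.65 ± 0.14, adjusted p = 6.23e-05). The asparagine synthetase gene ASN2 had 22074 and 25195, against 8447 and 8031 in Col-0 (log2 change 1.52 ± 0.09, adjusted p = 1.08e-05). The next steps did not move together. The nitrite reductase NIR1 rose by 0.92 ± 0.07 and the nitrate reductase NIA1 by 0.88 ± 0.08, while NIA2 fell by 0.49 ± 0.08. The dual-affinity transporter NRT1.1 fell by 0.82 ± 0.10, and the plastid glutamine synthetase GS2 fell by 0.77 ± 0.08. Of 17 phosphate starvation genes 3 rose and 3 fell, and of 9 sulfur genes 1 rose and 1 fell.

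Genes that make defence metabolites from amino acids were mostly higher. Glucosinolates are sulfur-rich compounds of the cabbage order that are cleaved into toxins when tissue is chewed. Of 16 aliphatic glucosinolate genes, 12 rose and 1 fell, with a median log2 change of 0.71. FMO GS-OX1, which oxidises the side chain, had 2344 and 2189 normalised counts in the epl1a/b-labelled libraries, against 738 and 804 in Col-0 (log2 change 1.55 ± 0.08, adjusted p = 5.98e-06). CYP79F2, the first step of the core pathway, had 1838 and 1860, against 674 and 711 in Col-0 (log2 change 1.42 ± 0.07, adjusted p = 5.95e-06). The 3 MYB regulators of the pathway diverged. MYB76 had 133 and 126, against 53.7 and 39.5 in Col-0, and MYB28 had 5177 and 4825, against 2766 and 2832 in Col-0, so both rose. MYB29 had 421 and 473, against 1135 and 1005 in Col-0, and it alone of the list fell (log2 change -1.26 ± 0.10, adjusted p = 4.48e-05).

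Of 15 genes of indole glucosinolates and the phytoalexin camalexin, 13 rose and none fell, with a median of 0.65, and 6 to 11 were called higher when 1 library was left out. CYP71A12 had 97.7 and 63.1 in the epl1a/b-labelled libraries, against 12.7 and 18.6 in Col-0 (log2 change 2.28 ± 0.32, adjusted p = 0.000927). CYP79B2, the entry step from tryptophan, had 2985 and 2763, against 1177 and 1584 in Col-0 (log2 change 1.07 ± 0.14, adjusted p = 0.00169). CYP81F2 had 101 and 60.4, against 27.7 and 47.6 in Col-0 (log2 change 1.09 ± 0.34, adjusted p = 0.0349). Its call was lost without any 1 library, with adjusted p from 0.06 to 0.248, and with a replicate block (adjusted p = 0.087).

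Of 18 phenylpropanoid and lignin genes, 13 rose and 3 fell, with a median of 0.49. PAL1, the entry enzyme from phenylalanine, had 9725 and 10840, against 4964 and 5686 in Col-0 (log2 change 0.95 ± 0.09, adjusted p = 0.000165). 4CL3, the ligase that feeds flavonoids, had 1272 and 1771, against 657 and 760 in Col-0 (log2 change 1.09 ± 0.17, adjusted p = 0.00468). Flavonoid synthesis had 7 of 21 genes higher and none lower, with a median of 0.79. Its regulator MYB12 had 184 and 262, against 84.5 and 87.1 in Col-0 (log2 change 1.35 ± 0.18, adjusted p = 0.000847), and the number called higher lay between 2 and 16 when 1 library was left out. Of 17 wax and cutin genes, 3 rose and 6 fell, and CER1, which makes the alkanes of leaf wax, had 831 and 726, against 2122 and 2361 in Col-0 (log2 change -1.53 ± 0.09, adjusted p = 1.34e-05).

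Enzymes that attach sugars or glutathione to small molecules were often higher. Of 119 UDP-glycosyltransferase genes, 53 rose and 14 fell, with a median of 0.49. UGT73C1 (AT2G36750) had 203 and 244 normalised counts in the epl1a/b-labelled libraries, against 7.41 and 8.30 in Col-0 (log2 change 4.66 ± 0.23, adjusted p = 5.95e-06). Of 29 tau glutathione transferases, 17 rose and 2 fell, with a median of 0.57. GSTU4 had 169 and 124, against 26.4 and 30.1 in Col-0 (log2 change 2.32 ± 0.22, adjusted p = 0.000143), while GSTU18 had 218 and 180, against 1140 and 1065 in Col-0 (log2 change -2.47 ± 0.11, adjusted p = 3.53e-06). Both belong to the same class, and they moved in opposite directions. Of 72 class III peroxidases 28 rose and 9 fell. The 217 cytochrome P450 genes had 72 higher and 52 lower, and CYP71B35 had 16.0 and 7.63, against 444 and 409 in Col-0 (log2 change -5.14 ± 0.32, adjusted p = 2.13e-05).

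Genes that respond to auxin, the hormone of cell extension, were more often lower as deposited, but not in every group at equal totals. Of 22 genes of auxin synthesis, transport and response, 2 rose and 11 fell, with a median log2 change of -0.53, and at equal totals 6 rose and 9 fell. IAA6, a short-lived repressor that auxin induces, had 7.82 and 8.76 normalised counts in the epl1a/b-labelled libraries, against 51.5 and 33.3 in Col-0 (log2 change -2.19 ± 0.35, adjusted p = 0.00169). IAA5 had 19.3 and 15.6, against 65.3 and 49.9 in Col-0 (log2 change -1.66 ± 0.28, adjusted p = 0.00227), and IAA19 had 69.3 and 55.6, against 201 and 139 in Col-0 (log2 change -1.42 ± 0.22, adjusted p = 0.00149). Against this direction, AXR3, which encodes the repressor IAA17, rose by 0.71 ± 0.09. The Aux/IAA repressors as a family did not lean clearly either way. Of 32 tested, 6 rose and 9 fell, with a median of -0.06, and at equal totals 12 rose and 6 fell. The exporter PIN4 fell by 0.81 ± 0.10. Of 73 SAUR genes, small auxin-induced proteins of growing tissue, 13 rose and 23 fell, with a median of -0.25, and at equal totals 16 rose and 20 fell. SAUR28 had 7.74 and 11.5, against 44.4 and 50.8 in Col-0 (log2 change -2.22 ± 0.33, adjusted p = 0.00116). Of 23 expansins, which loosen walls for growth, 3 rose and 9 fell, with a median of -0.42, and these counts were 6 and 5 at equal totals. EXPA8 had 587 and 442, against 4209 and 3338 in Col-0 (log2 change -2.88 ± 0.18, adjusted p = 0.000171).

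Cold and abscisic acid response genes were also more often lower, with 2 of 22 higher and 8 lower and a median of -0.29, although 5 and 6 were called at equal totals. Leaving out 1 library gave 0 to 2 higher and 6 to 11 lower. COR15A, which protects chloroplast membranes in frost, had 114 and 55.7 normalised counts in the epl1a/b-labelled libraries, against 971 and 604 in Col-0 (log2 change -3.25 ± 0.47, adjusted p = 0.0121). P5CS1, the rate-limiting enzyme of proline synthesis, had 3413 and 2334, against 10897 and 10638 in Col-0 (log2 change -1.93 ± 0.18, adjusted p = 0.000969). COR15B had 11.3 and 11.4, against 103 and 43.9 in Col-0 (log2 change -2.47 ± 0.41, adjusted p = 0.00205), with -1.86 and -3.07 without Col-0 replicate 1 and replicate 2, and 29.5% of it is overlapped by another gene. ABI5, the factor that arrests germinating seeds under abscisic acid, rose instead, with 49.3 and 33.7, against 13.7 and 9.38 in Col-0 (log2 change 1.76 ± 0.35, adjusted p = 0.00469). It lost the call with Col-0 replicate 2 left out (adjusted p = 0.052) or epl1a/b replicate 1 left out (0.0654).

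Other hormone lists were mixed. Of 14 gibberellin genes, 7 rose and 1 fell, and the 3 receptors split, with GID1B higher by 1.01 ± 0.10 and GID1A by 0.79 ± 0.11 and GID1C lower by a log2 change of -0.58 ± 0.13. GID1C lost the call without either Col-0 library (adjusted p = 0.0953 and 0.0736), with epl1a/b replicate 2 left out (0.0638) and at equal totals (0.0653). Of 26 jasmonate genes, 8 rose and 5 fell. AOC3, a step of jasmonate synthesis, had 572 and 473, against 184 and 203 in Col-0 (log2 change 1.42 ± 0.12, adjusted p = 7.53e-05). Of 9 type-A cytokinin response regulators 1 rose and 1 fell, and ARR15 had 21.0 in both epl1a/b-labelled libraries, against 84.5 and 93.3 in Col-0 (log2 change -2.03 ± 0.22, adjusted p = 0.000285).

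Genes of the circadian clock changed in both directions. The clock is a loop in which CCA1 and LHY, active at dawn, repress TOC1 and other evening genes. Of 19 clock genes, 5 rose and 9 fell, with a median log2 change of -0.00, and at equal totals 7 rose and 6 fell. RVE8, an activator within the clock, had 615 and 622 normalised counts in the epl1a/b-labelled libraries, against 2021 and 1841 in Col-0 (log2 change -1.64 ± 0.08, adjusted p = 4.42e-06). LHY had 2152 and 2347, against 6301 and 5753 in Col-0 (log2 change -1.42 ± 0.08, adjusted p = 1.02e-05), and CCA1 fell by 1.04 ± 0.07. Among those that rose, LUX (PCL1 in the annotation) had 465 and 512, against 273 and 257 in Col-0 (log2 change 0.88 ± 0.10, adjusted p = 0.000291). TOC1 had 512 and 511, against 299 and 328 in Col-0 (log2 change 0.71 ± 0.09, adjusted p = 0.000648), and GI rose by 0.68 ± 0.10. PRR5 rose by 1.14 ± 0.24, but not with epl1a/b replicate 2 left out (adjusted p = 0.0741). The time of day at which each genotype was harvested is not stated in the labels, so its part in these values was not tested.

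Of 17 flowering time genes, 4 rose and 5 fell. FLC, the repressor that winter cold silences, had 43.2 and 28.5 in the epl1a/b-labelled libraries, against 6.28 and 2.11 in Col-0 (log2 change 2.92 ± 0.50, adjusted p = 0.00241). Its change was 3.54 and 2.31 without Col-0 replicate 1 and replicate 2, and it lost the call with epl1a/b replicate 1 left out (adjusted p = 0.0637). Another gene overlaps 68.1% of its length, so its call is uncertain. Its relative MAF4 had 70.7 and 75.3, against 28.3 and 10.5 in Col-0 (log2 change 2.01 ± 0.43, adjusted p = 0.00773), with 2.68 and 1.34 without Col-0 replicate 1 and replicate 2, and its call was lost without either epl1a/b library (adjusted p = 0.0845 and 0.0972). SOC1 (AGL20), a promoter of flowering that FLC represses, had 316 and 291, against 474 and 467 in Col-0 (log2 change -0.63 ± 0.09, adjusted p = 0.00111). Between 0 and 3 genes of this list were called higher and 1 was called lower when any 1 library was left out, so most of its calls rest on all 4 libraries.

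Immunity genes differed between libraries of one genotype. Salicylic acid turns on pathogenesis-related (PR) genes after infection. PR1 had 1716 and 95.4 normalised counts in the epl1a/b-labelled libraries, against 1.44 and 56.6 in Col-0, and was not called (log2 change 5.10 ± 2.91, adjusted p = 0.292). PR2 (BGL2) had 3768 and 410, against 18.4 and 411 in Col-0, and was not called either. In both genes epl1a/b replicate 1 was high and Col-0 replicate 1 low, while the libraries numbered 2 lay between them. Of the 19 genes of the list, 4 rose and 2 fell, and leaving out 1 library gave 4 to 8 higher and 2 to 5 lower. PR5 had 543 and 339, against 103 and 93.4 in Col-0 (log2 change 2.12 ± 0.22, adjusted p = 0.000523), and the salicylic acid transporter EDS5 had 541 and 353, against 168 and 183 in Col-0 (log2 change 1.32 ± 0.20, adjusted p = 0.0026). SAG101 rose by 1.16 ± 0.18 and PAD4 by 1.08 ± 0.18, both partners of EDS1 in immune signalling, while EDS1 was not called. NPR1, a receptor of salicylic acid, had 280 and 273, against 436 and 475 in Col-0 (log2 change -0.72 ± 0.09, adjusted p = 0.000678).

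Intracellular immune receptors of the NLR class, which detect proteins that pathogens inject, were more often lower. Of 86 TIR-NBS-LRR genes, 12 rose and 32 fell, with a median log2 change of -0.28, and at equal totals 19 rose and 24 fell, with a median of -0.04. Leaving out 1 library gave 2 to 4 higher and 19 to 30 lower. Of 44 NB-ARC and CC-NBS-LRR genes, 5 rose and 16 fell, with a median of -0.25, and at equal totals 11 rose and 14 fell. RPM1 had 33.7 and 15.3 in the epl1a/b-labelled libraries, against 151 and 165 in Col-0 (log2 change -2.74 ± 0.35, adjusted p = 0.000826), and LOV1 had 43.0 and 36.5, against 176 and 184 in Col-0 (log2 change -2.15 ± 0.18, adjusted p = 6.01e-05). Of 42 cysteine-rich receptor kinases, which sit at the cell surface, 12 rose (28.6%) and 3 fell, with 5 to 13 higher when 1 library was left out. CRK27 had 5.17 and 7.04, against 119 and 137 in Col-0 (log2 change -4.19 ± 0.28, adjusted p = 2.28e-05). Of 43 defensin-like genes, short secreted peptides, 14 rose and 3 fell, with 6 to 12 higher when 1 library was left out. These 43 are the ones of 195 that passed the filter on low values. A gene could pass through the epl1a/b-labelled libraries alone, as AT5G33355, listed at 0 in Col-0, did. AT1G13609, a member, had 4.42 and 2.56, against 756 and 867 in Col-0 (log2 change -7.53 ± 0.25, adjusted p = 2.03e-06), among the 8 largest falls of all genes.

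Several transcription factor families had fewer members lower than the 24.1% over all genes, with 7.58% of WRKY, 6.67% of NAC, 8.33% of MYB and 10.1% of ERF and DREB genes lower. A gene could pass the filter on low values through the epl1a/b-labelled libraries alone. NAC085 and the MADS-box gene AGL6, both listed at 0 in Col-0, did so, and 70 of 125 MADS-box genes passed. Of 66 WRKY genes, 24 rose and 5 fell, with 14 to 20 higher when 1 library was left out. WRKY61 had 272 and 285, against 89.8 and 92.3 in Col-0 (log2 change 1.60 ± 0.12, adjusted p = 4.61e-05). Of 90 NAC genes, 29 rose and 6 fell, with 16 to 24 higher when 1 library was left out, and NAC044, a factor of the DNA damage response, had 250 and 325, against 31.6 and 27.0 in Col-0 (log2 change 3.24 ± 0.20, adjusted p = 1.28e-05). Of 108 MYB genes, 31 rose and 9 fell, and of 89 ERF and DREB genes, 31 rose and 9 fell, with 15 to 29 and 16 to 21 higher when 1 library was left out. MYB21, a factor of stamen growth, had 91.0 and 85.6, against 1.06 and 1.04 in Col-0 (log2 change 5.44 ± 0.36, adjusted p = 1.91e-05), with 21.0% of its length overlapped by another gene. The 70 MADS-box genes had 19 higher (27.1%) and 11 lower, with 4 to 11 higher when 1 library was left out, and SEP4 had 23.2 and 8.34, against 163 and 131 in Col-0 (log2 change -3.29 ± 0.45, adjusted p = 0.00175), with -3.98 and -2.61 without epl1a/b replicate 1 and replicate 2. Pentatricopeptide repeat proteins, which edit and splice organelle RNA, had 18 of 241 members higher (7.47%, against 22.5% over all genes) and 62 lower (25.7%, against 24.1%), and at equal totals 42 and 47. AT3G49140, a member of the family, had 415 and 396, against 1697 and 1591 in Col-0 (log2 change -2.02 ± 0.08, adjusted p = 2.22e-06).

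Chromatin genes other than those of NuA4 held a few large changes. HAC2 (AT1G67220), a histone acetyltransferase of the CBP family, had 94.4 and 91.7 normalised counts in the epl1a/b-labelled libraries and was listed at 0 in Col-0, at least 29.6-fold higher. Of the 10 histone acetyltransferase genes tested outside NuA4, HAC2 among them, 3 rose and 1 fell, and HAC4 had 275 and 283, against 432 and 432 in Col-0. Of 13 deacetylase genes, 6 rose and 2 fell. HDA14, whose product is found in chloroplasts and mitochondria, had 103 and 116, against 784 and 758 in Col-0 (log2 change -2.81 ± 0.10, adjusted p = 2.15e-06), and HD2C had 1691 and 1693, against 855 and 931 in Col-0 (log2 change 0.92 ± 0.07, adjusted p = 5.70e-05). Of 8 Polycomb genes 1 rose and 1 fell, and MEA, a histone methyltransferase gene of the endosperm, had 19.9 and 26.4, against 1.06 and 1.04 in Col-0 (log2 change 3.55 ± 0.45, adjusted p = 0.00057). Of 10 DNA methylation genes 2 rose and 3 fell. The demethylase ROS1 (DML1) had 433 and 332, against 863 and 1083 in Col-0 (log2 change -1.35 ± 0.16, adjusted p = 0.00109), and the methyltransferase CMT2 had 367 and 307, against 826 and 868 in Col-0 (log2 change -1.33 ± 0.10, adjusted p = 4.78e-05).

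A few seed genes were detected in these seedlings. Of 12 seed storage and maturation genes that passed the filter on low values, 7 rose and none fell, but a gene could pass through the epl1a/b-labelled libraries alone. Leaving out 1 library gave 3 to 5 higher. PAP85, a vicilin-like storage protein gene, had 39.1 and 46.5 normalised counts, against 1.06 and 1.04 in Col-0 (log2 change 4.41 ± 0.40, adjusted p = 0.000106), and SESA4 had 31.4 and 34.2, against 1.06 and 1.04 in Col-0 (log2 change 4.04 ± 0.42, adjusted p = 0.000198). FUS3, a master regulator of seed maturation, had 21.2 and 14.7, against 2.14 and 4.13 in Col-0 (adjusted p = 0.00625), and its call was lost without either epl1a/b library (adjusted p = 0.0945 and 0.0564) or Col-0 replicate 1 (0.0594). SESA1, another storage protein gene, had 24.4 and 0, against 0 and 0 in Col-0, and was not tested.

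Genes of starch were more often lower, in the libraries where the leaf markers were lower. Genes of defence against oxygen radicals, which also have chloroplast members, went both ways. Of 10 starch and sugar genes, 1 rose and 5 fell, with a median log2 change of -0.64, and the starch synthase GBSS1 had 2206 and 2021 normalised counts in the epl1a/b-labelled libraries, against 5502 and 5539 in Col-0 (log2 change -1.39 ± 0.07, adjusted p = 7.51e-06). Of 15 genes that remove superoxide or peroxide, 5 rose (33.3%, against 22.5% over all genes) and 4 fell (26.7%, against 24.1%). That list thus stood near the shares over all genes, and its largest changes went in opposite directions. The cytosolic dismutase CSD1 had 978 and 776, against 218 and 234 in Col-0 (log2 change 1.94 ± 0.12, adjusted p = 1.58e-05). The thylakoid peroxidase TAPX had 944 and 854, against 3033 and 2847 in Col-0 (log2 change -1.71 ± 0.08, adjusted p = 4.33e-06), and the plastid iron dismutase FSD3 fell by 1.59 ± 0.09. Of 3 genes of mitochondrial stress response, 2 rose, and the alternative oxidase AOX1A had 942 and 1112, against 438 and 399 in Col-0 (log2 change 1.29 ± 0.10, adjusted p = 5.31e-05).

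Strongly expressed genes, with a mean of at least 2000 normalised counts, were ranked without those matched as photosynthesis or chlorophyll genes. Their 5 largest rises included 2 lectin genes and the targeted gene EPL1B, whose values are given above. JAL23, a jacalin-related lectin, had 5405 and 2954 in the epl1a/b-labelled libraries, against 120 and 153 in Col-0 (log2 change 4.87 ± 0.37, adjusted p = 0.00254). AT1G52100, a mannose-binding lectin, had 4461 and 3953, against 264 and 254 in Col-0 (log2 change 4.01 ± 0.08, adjusted p = 7.41e-07). HINT3, a nucleotide-binding protein, had 4919 and 5877, against 840 and 722 in Col-0 (log2 change 2.79 ± 0.11, adjusted p = 2.51e-06). The largest fall was that of NdhO, a subunit of the chloroplast NAD(P)H:plastoquinone dehydrogenase complex, which the match by words had missed. It had 190 and 141, against 4615 and 3785 in Col-0 (log2 change -4.67 ± 0.17, adjusted p = 1.36e-05). Next came KEA1, a potassium antiporter of the chloroplast envelope, with 496 and 475, against 3721 and 3750 in Col-0 (log2 change -2.94 ± 0.07, adjusted p = 9.65e-07). At a lower mean level, ELIP2, a light stress protein of thylakoids, was among the 8 largest rises of all genes, with 2921 and 4253, against 90.0 and 126 in Col-0 (log2 change 5.03 ± 0.26, adjusted p = 0.000293).

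Genes were called switched on where both Col-0 libraries had at most 1 normalised count and both epl1a/b-labelled libraries at least 10, and switched off in the reverse case. These thresholds chose the genes, so their values are a description with no test. There were 19 genes switched on, 18 of them protein-coding, and 19 switched off, 16 of them protein-coding. A read was worth slightly more than 1 normalised count in Col-0 and slightly less in the epl1a/b-labelled libraries, so the threshold let 1 read per library through in the epl1a/b-labelled libraries alone. All 19 genes switched on had 0 reads in Col-0, while 7 of the 19 switched off had 0 reads in the epl1a/b-labelled libraries and 12 had 1 or 2. A listed 0 can also occur for genes of ordinary use, since the jasmonate factor gene MYC2 was listed at 0 in all 4 libraries.

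The genes switched on were of varied kinds. AT1G30170, of the DUF295 family, had 198 and 232 normalised counts in the epl1a/b-labelled libraries, at least 68.5-fold higher. AT5G33355, a defensin-like gene, had 146 and 155, at least 47.9-fold higher, with 28.1% of its sequence words found elsewhere in the genome. HAC2 has been described above. NAC085, a close relative of NAC044, had 42.3 and 64.4, at least 17-fold higher. AT1G63210, annotated as an Spt6 transcription elongation factor, had 63.4 and 41.4, from 120 reads. FWA, a homeobox gene known for being silenced by DNA methylation in vegetative tissue, had 18.7 and 37.2, at least 8.91-fold higher. AT3G54730 had 13.2 and 46.4, at least 9.49-fold higher, with 69.6% of its sequence words found elsewhere. AGL6, a MADS-box gene of flowers, had 15.9 and 10.3, just above the threshold, as did LCR25 with 20.4 and 10.2. CYP82G1 with 42.9 and 9.71 and AT1G23770 with 9.60 and 9.61 lay just below it. None of the 19 lay within 5 genes of another.

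The genes switched off were led by AT1G13650, of unknown function, with 0 and 0.892 normalised counts in the epl1a/b-labelled libraries, against 952 and 959 in Col-0, that is 1 read against 1826, a ratio of 0.000467 with a 95% counting interval of 1.16e-05 to 0.00255. IRT1, BHLH100, bHLH38 and CYP82C4, all of the iron response, were among the 7 with the highest level in Col-0. The 2 glycosyl hydrolase genes AT3G47040 and AT3G47050 lie near each other. AT3G47040 had 0.862 and 0.863, against 67.6 and 68.5 in Col-0, a ratio of 0.0127 with an interval of 0.00154 to 0.0474. AT3G47050 had 0 and 0.892, against 34.9 and 40.4 in Col-0, a ratio of 0.0118 with an interval of 0.00029 to 0.0667. AT3G59250, an F-box gene, was listed at 0, against 51.6 and 43.6 in Col-0. AT1G13608, a defensin-like gene, was listed at 0, against 28.7 and 45.5 in Col-0, at least 14.2-fold lower. Of the 19, 4 are overlapped by another gene over more than 20% of their length, among them MIR825, which lies wholly within another gene. PP2-B2 with 10.7 and 18.6 in Col-0 lay just inside the threshold and AT4G10160 with 9.35 and 10.5 just outside.

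The 2 other Col-0 libraries of the study, which the choice did not use, had 18798088 counts in the dark and 27831231 in the light. Of the 19 genes switched on, 8 had 0 counts, 8 had 1 to 9 and 3 had 10 or more in the Col-0 light library, with a median of 2 and a maximum of 223 for AT5G33355. Of the 19 switched off, 2 had 0 counts, 2 had 1 to 9 and 15 had 10 or more, with a median of 32 and a maximum of 788 for IRT1. Most genes silent in Col-0 in the genotype experiment were thus near silent in the Col-0 light library. Most genes present had 10 or more counts there, but not all at a like level. IRT1 had 788 light counts against 670 reads in the 2 Col-0 libraries of the genotype experiment, and CYP82C4 had 146 against 127. AT1G13650 had 422 against 1826, and bHLH38 had 37 against 239. AT5G33355, LOG9 with 19 counts and CYP96A3 with 12 were exceptions among the genes switched on. In the dark library, 8 of the genes switched on had 0 counts, 7 had 1 to 9 and 4 had 10 or more, with a maximum of 95 for CYP96A3. Of the genes switched off, 3 had 0 counts, 8 had 1 to 9 and 8 had 10 or more in the dark library. AT2G47880 and AT1G13608, switched off in the epl1a/b-labelled libraries, were at 0 in both the dark and the light library of Col-0. BHLH100 had 8 counts in the light library and 1 in the dark library, against 371 reads in Col-0 of the genotype experiment. Iron genes that fell without being switched off were also low in the light library. AT2G30766 had 21 light counts against 2164 reads, bHLH39 had 53 against 341 and IRT2 had 41 against 157. The defensin-like gene AT1G13609 had 14 against 1552, while KEA1, which also fell, had 4649 against 7139. With 1 library each and another scale, no test was made.

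**Figure D4:**
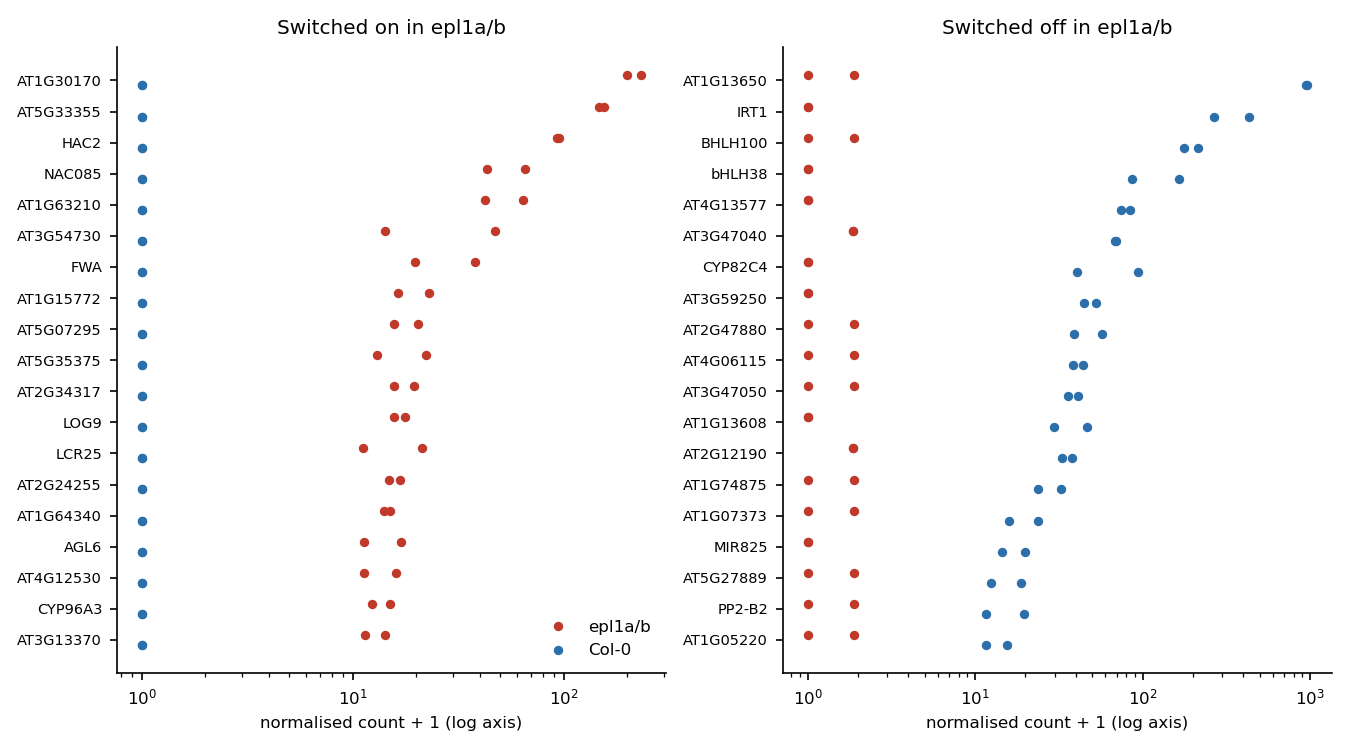
Normalised count + 1 (log axis) of each library for the 19 genes switched on (left) and the 19 switched off (right), with the epl1a/b-labelled libraries in red and Col-0 in blue just below them. Genes are ordered by their level where they are on. The genes on have 0 counts in both Col-0 libraries, and AT1G13650 reaches 952 and 959 in Col-0 against 0 and 0.892.

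Strongly changed genes often lay beside each other. Of the 1947 genes at least 2-fold higher, 510 (26.2%) had an adjacent tested gene that was also at least 2-fold higher, against 15.6% of all genes tested that had such a neighbour. Of the 1890 genes at least 2-fold lower, 405 (21.4%) had such a neighbour, against 15.1% of all genes. Neighbours can be tandem copies or can share reads, so no test was made. The longest run of higher genes held 5 and the longest run of lower genes held 7.

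The run of 7 lower genes on chromosome 4 spans 7879558 to 7898499 (TAIR10.1). UNE15, of the late embryogenesis abundant family, had 13.2 and 11.3 normalised counts in the epl1a/b-labelled libraries, against 271 and 186 in Col-0 (log2 change -4.10 ± 0.25, adjusted p = 1.40e-05). HTA4, a histone H2A gene, had 2.58 and 3.52, against 131 and 90.5 in Col-0 (log2 change -4.77 ± 0.34, adjusted p = 3.09e-05). AT4G13572 had 2.67 and 0.814, against 170 and 176 in Col-0 (log2 change -6.08 ± 0.40, adjusted p = 1.95e-05). UNE15 and HTA4 thus encode different kinds of protein. AT4G13575, a gene of an uncharacterised protein, had 13.9 and 15.8, against 1915 and 1399 in Col-0 (log2 change -6.69 ± 0.17, adjusted p = 1.59e-06). AT4G13577 was listed at 0, against 83.3 and 73.7 in Col-0, at least 29.9-fold lower. The non-coding AT4G06115 and the microRNA precursor gene MIR841a complete the run. MIR841a had 0.892 and 0, against 9.48 and 7.28 in Col-0, that is 1 read against 16, and its call (adjusted p = 0.00717) was lost with DESeq2 (0.0772) and with epl1a/b replicate 2 left out (0.066). Another gene overlaps 30.7% of it, so its place in the run is uncertain. Past its ends, MIR397b was not called, with a log2 change of -0.19 ± 0.45, and AT4G13580 fell by 0.95 ± 0.18, followed by AT4G13590, with 451 and 443, against 1980 and 1760 in Col-0. In the other Col-0 libraries, AT4G13575 had 825 counts in the light and 3 in the dark, UNE15 had 170 and 2, and AT4G13572 had 138 and 4.

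**Figure D5:**
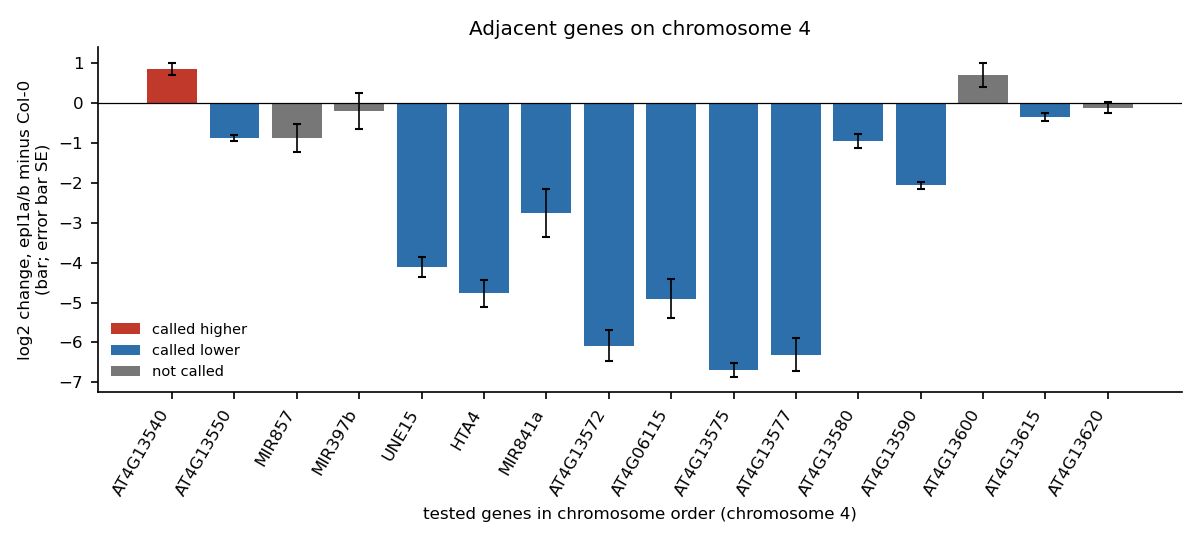
Log2 change (epl1a/b minus Col-0, bars, with SE as error bars) of 16 tested genes in their order on chromosome 4, coloured by call. The 7 adjacent genes from UNE15 to AT4G13577 lie between -6.69 and -2.76, while MIR397b before them is at -0.19 and AT4G13580 after them at -0.95.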

How the data were processed

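The genotype table holds normalised read counts per gene, a signal on a scale common to its 4 libraries, deposited by the authors, per the file headers. The table of Col-0 seedlings in the dark and in the light holds raw read counts deposited by the authors, per the file headers. Alignment with HISAT2 to TAIR10, counting with featureCounts and edgeR are named in the submitters' processing notes, and versions, parameters and the use of strand are not given in the sources used here. The values matched whole reads passed through edgeR's common-dispersion quantile adjustment, and inverting that adjustment at a fitted dispersion of 0.00642 returned whole reads for 100% of the 32548 genes, within a relative tolerance of 1e-04. Recovered totals were 19088784 and 19067459 in epl1a/b and 18796289 and 18821439 in Col-0. Replicates differed beyond counting noise (chi-square per degree of freedom 7.18 in epl1a/b and 6.88 in Col-0), so each was counted as 1 sample, with 2 per group.

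Genes reaching a value of 1 in at least 2 libraries were tested on log2(value + 1), a scale that understates changes of low genes, with limma 3.58.1 in R 4.3.3 (trend and robust), genotype alone as the model, and Benjamini-Hochberg adjustment over 23658 genes, called at 0.05. The test was chosen for this unit. The recovered reads were also tested with edgeR 4.0.16 and DESeq2 1.42.0, and the fits were tested on simulated data first. Gene names, places and upstream bases come from RefSeq (TAIR10.1). Of 585 list entries, 557 were paired with a name and 28 were not. Families were found by words in gene descriptions, and those whose words also caught other genes (actins, proteasome, autophagy, aquaporins, cytosolic ribosomal proteins, translation factors) are not reported. Word sharing is the share of 50-base words of a gene found elsewhere in the genome. Above 20% of shared words or overlap a value is uncertain, also where only the share is given beside the gene. Intervals and the floor of 3 reads cover counting error only.

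Named genes are the targeted genes with their neighbours, the 8 largest rises and falls at a mean of at least 100, the 5 largest at a mean of at least 2000 outside photosynthesis, up to 3 called members per list and 2 per family at a mean of at least 20, and the 10 highest switched genes. Any gene named beyond this rule was picked with its values in view. The members and lists were chosen with earlier results of these data known.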

Additional observations from a re-analysis of the deposited data

How the results depend on the processing

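Without a filter on low values, 1074 genes were called higher and 1918 lower in epl1a/b, and with libraries scaled to equal totals 8738 and 3650. Leaving out 1 library gave 2660 to 3689 higher and 3836 to 4147 lower, where the lone library of a genotype is assumed to vary like the other pair. edgeR called 5337 and 5775 and DESeq2 3847 and 4411. A replicate block gave 4578 and 5099. Same-numbered libraries deviated in opposite directions (correlation -0.228), so the block had no pairing to rest on, and the crossed pairing, chosen after seeing the data, gave 5353 and 5585. The median log2 change under 10 normalised counts was 0.56 with a pseudocount of 0.1, 0.50 at equal totals and 0.33 to 0.44 without 1 library. From 10 to under 100 it was 0.45 at equal totals and 0.19 to 0.23 without 1 library, from 100 to under 1000 it was 0.21 and -0.04 to -0.03, and from 1000 to under 10000 it was 0.16 at equal totals. At 10000 and more it was -0.20 at equal totals, -0.02 without photosynthesis and chlorophyll genes, a setting chosen after seeing the data, and -0.08 in the top one of 10 bins of equal gene number. Genes switched on numbered 66 at a threshold of 5, 5 at a threshold of 20, 60 with up to 2 in Col-0, 67 at equal totals and 30 to 66 without 1 library. Genes switched off numbered 32 at a threshold of 5, 31 with up to 2, 7 with 0 in epl1a/b and 20 to 37 without 1 library. The causes were not tested. Of 218 named calls, 109 were lost without the filter, 11 with DESeq2, 7 with the block, 6 at equal totals, 3 with the crossed block, 2 with edgeR, 1 with a pseudocount of 0.1 and 0 with a pseudocount of 5, a filter of 10 or median ratio scaling. Of 208 that could be refitted with 1 library left out, 37 and 21 were lost with Col-0 replicate 1 or 2 left out and 27 and 29 with replicate 1 or 2 of epl1a/b left out, and no sign was reversed. Of the 164 counts over lists and families, 138 moved more than 1.5 times without the filter, 70 at equal totals, and 51 to 69 without 1 library. With 2 libraries per genotype, small changes of genes under 10 normalised counts were not detectable at this depth.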

Other observations

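Senescence and dark-induced genes, a list of 6 tested, were split between strong rises and falls. DIN11, a dioxygenase gene induced in darkness, had 218 and 96.1 normalised counts in the epl1a/b-labelled libraries, against 16.8 and 11.5 in Col-0 (log2 change 3.29 ± 0.41, adjusted p = 0.000785), and 2.70 and 3.88 with replicate 1 and with replicate 2 of epl1a/b left out. NAP, a NAC factor of leaf ageing, had 78.9 and 64.4, against 358 and 333 in Col-0 (log2 change -2.26 ± 0.15, adjusted p = 1.85e-05). SEN1, another gene induced in darkness, had 213 and 185, against 538 and 403 in Col-0 (log2 change -1.23 ± 0.15, adjusted p = 0.000496).

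Beside the G-box, the I-box core GATAAG, searched on both strands of the 250 upstream bases, occurred in 16.2% of genes at least 2-fold lower, 12.6% of genes at least 2-fold higher and 12.3% of all protein-coding genes tested, and in 16.1% of the lower genes without photosynthesis and chlorophyll genes. TATAAA, also on both strands, occurred in 52.6% of genes at least 2-fold higher, 42.7% of those at least 2-fold lower and 46.8% of all. The evening element AAAATATCT occurred in 2.05%, 2.39% and 2.4% of the same groups. These shares are descriptions of the letters, with no test.

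Runs of at least 4 adjacent genes that were all 2-fold lower numbered 9, and runs of 2-fold higher genes 6. A lower run on chromosome 1 held AT1G47395, AT1G47400, AT1G07367 and AT1G07373. The first 2 are the unpaired iron list entries IMA2 and IMA1, with log2 changes of -2.52 and -3.38. A higher run of 4 on chromosome 2 held RLP27, NSP2, RLP28 and CSLD1.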
